A study of Mus musculus with 6 samples.

Results

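The Kruppel-like factors are zinc finger proteins that switch genes on or off, and 10 of their genes were followed here in the left ventricle of obese mice: Klf2, Klf3, Klf4, Klf5, Klf6, Klf7, Klf9, Klf10, Klf13 and Klf15. Members were taken by gene symbol from the array's probe table, which gave 34 probe sets for the 10 genes, out of 45101 probe sets on the array and 18194 named genes. RNA came from 6 male C57BL/6 mice, an inbred strain, aged 6 months and fed high fat chow over 16 weeks. Placebo was given to 3 of them, and the other 3 had an agent labelled Lira, which the labels do not spell out and for which no dose or treatment length is given in the sources used here. All 6 mice shared the diet, so no lean group stands beside them. The design text speaks of 10 mice, and those beyond the 6 were not analysed here. Each mouse gave 1 Affymetrix array, on which a probe set's brightness, here called its signal, is read in arbitrary units that are not logged. Nothing in the labels says whether mice shared cages or litters. P-values set a difference against the spread between these 6 arrays, which was estimated for each gene with help from all genes tested.

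Kruppel-like factors bind GC-rich and CACCC DNA elements through zinc fingers at the end of the protein. Klf2 and Klf4 are induced in endothelium by blood flow and keep the vessel wall quiescent, Klf6 and Klf10 respond to injury and to TGF-beta, and Klf5 is tied to remodelling of smooth muscle and connective tissue. In heart muscle Klf15 is known for promoting fatty acid and amino acid use and for its daily rhythm, and Klf9 is a target of glucocorticoid and thyroid hormone.

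The promoters of the 8 members found in the RefSeq promoter table (build GRCm38.p6) are the sequence context for these values, since the members share GC-rich starts; Klf5 and Klf10 were not matched. Each window runs from 250 bases before to 50 bases after the annotated start. The 4 printed here belong to the member with the clearest difference between groups (Klf4), the member with the same sign on each of its probe sets and a high placebo array (Klf6), the flow-induced Klf2, and the rhythmic Klf15. They are written 5′ to 3′ on the gene's strand, and capitals mark matches to 4 motifs, each searched on both strands: the GC box with the letters GGGCGG, the box named for its letters CACCC, the E-box with the letters CACGTG, and the MEF2 element.
Klf4, chr4:55532426-55532725, minus strand: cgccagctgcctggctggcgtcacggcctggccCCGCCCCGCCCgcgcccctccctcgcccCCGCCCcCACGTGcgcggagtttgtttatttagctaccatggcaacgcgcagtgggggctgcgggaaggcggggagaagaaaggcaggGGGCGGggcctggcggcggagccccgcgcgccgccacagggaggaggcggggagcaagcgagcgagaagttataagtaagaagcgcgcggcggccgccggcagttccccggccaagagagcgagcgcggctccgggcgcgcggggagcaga
Klf6, chr13:5861239-5861538, plus strand: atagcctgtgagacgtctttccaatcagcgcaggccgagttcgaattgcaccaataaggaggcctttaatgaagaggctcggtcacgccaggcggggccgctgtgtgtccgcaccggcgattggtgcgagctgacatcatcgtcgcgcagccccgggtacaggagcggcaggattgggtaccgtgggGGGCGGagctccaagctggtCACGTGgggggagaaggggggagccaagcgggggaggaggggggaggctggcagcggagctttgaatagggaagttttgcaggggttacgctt
Klf2, chr8:72318812-72319111, plus strand: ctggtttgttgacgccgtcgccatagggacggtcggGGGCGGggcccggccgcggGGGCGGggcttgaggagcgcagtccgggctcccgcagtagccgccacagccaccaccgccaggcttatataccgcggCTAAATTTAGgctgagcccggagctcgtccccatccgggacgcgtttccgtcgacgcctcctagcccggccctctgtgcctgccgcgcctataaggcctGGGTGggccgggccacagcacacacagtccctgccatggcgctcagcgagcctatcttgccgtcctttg
Klf15, chr6:90462326-90462625, plus strand: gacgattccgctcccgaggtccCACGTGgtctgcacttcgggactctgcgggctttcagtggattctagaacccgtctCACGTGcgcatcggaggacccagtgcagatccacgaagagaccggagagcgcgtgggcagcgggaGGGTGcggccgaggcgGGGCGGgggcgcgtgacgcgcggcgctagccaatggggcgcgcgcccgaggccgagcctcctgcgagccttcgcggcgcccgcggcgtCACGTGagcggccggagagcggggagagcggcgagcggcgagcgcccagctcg

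A GC box was found in 7 of the 8 member promoters, against 35.7% of 32851 promoters of this length in the table, and a CACCC box in 6 of 8, against 57.5%. The E-box, the element read by the clock proteins among others, was found in Klf4, Klf6 and Klf15, or 3 of 8, against 7.15%. Klf15 held 3 copies, at -228, -172 and -3 relative to the start, Klf4 held 1 at -182 and Klf6 held 1 at -43. The MEF2 element was found in 1 of 8, in Klf2 at -118 to -109, against 3.19%. The cyclic AMP element (TGACGTCA, 1.79% of promoters) and the CArG box (1.63%) were in 0 of 8, which says only that these letters are not in these windows. Member promoters were 58.3% to 76.7% G and C (median 70.7%), and the median of the table was 52.7%. The part of this base composition in the shares of GC boxes, CACCC boxes and E-boxes was not tested. The first pair of GC boxes in Klf4 shares a base, as do a GC box and a CACCC box in Klf3 and in Klf13. These matches describe the sequence and are not evidence of binding in these hearts.

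Signals were compared as log2(signal + 16) in limma over 12736 genes, each gene by its brightest probe set, and differences are Lira minus placebo on that scale, where changes of dim genes come out too small. All 10 members passed the filter on low signals, Klf5 only just. No member passed an adjusted p of 0.05 (0 of 10, against 7 genes or 0.0550% of all genes tested). At an unadjusted p under 0.05, 1 of 10 members was counted, Klf4, which was lower, against 6.02% of all genes in either direction and 3.12% lower. Members were split evenly, 5 lower and 5 higher with Lira, where 48.1% of all genes were lower, and their median difference was -0.03, beside 0.01 for all genes. The groups did not overlap in 2 of 10 members, Klf4 and Klf9, against 11.4% of all genes. The 95% interval of the difference lay below 0 for 1 member and held 0 for the other 9.

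**Figure D1:**
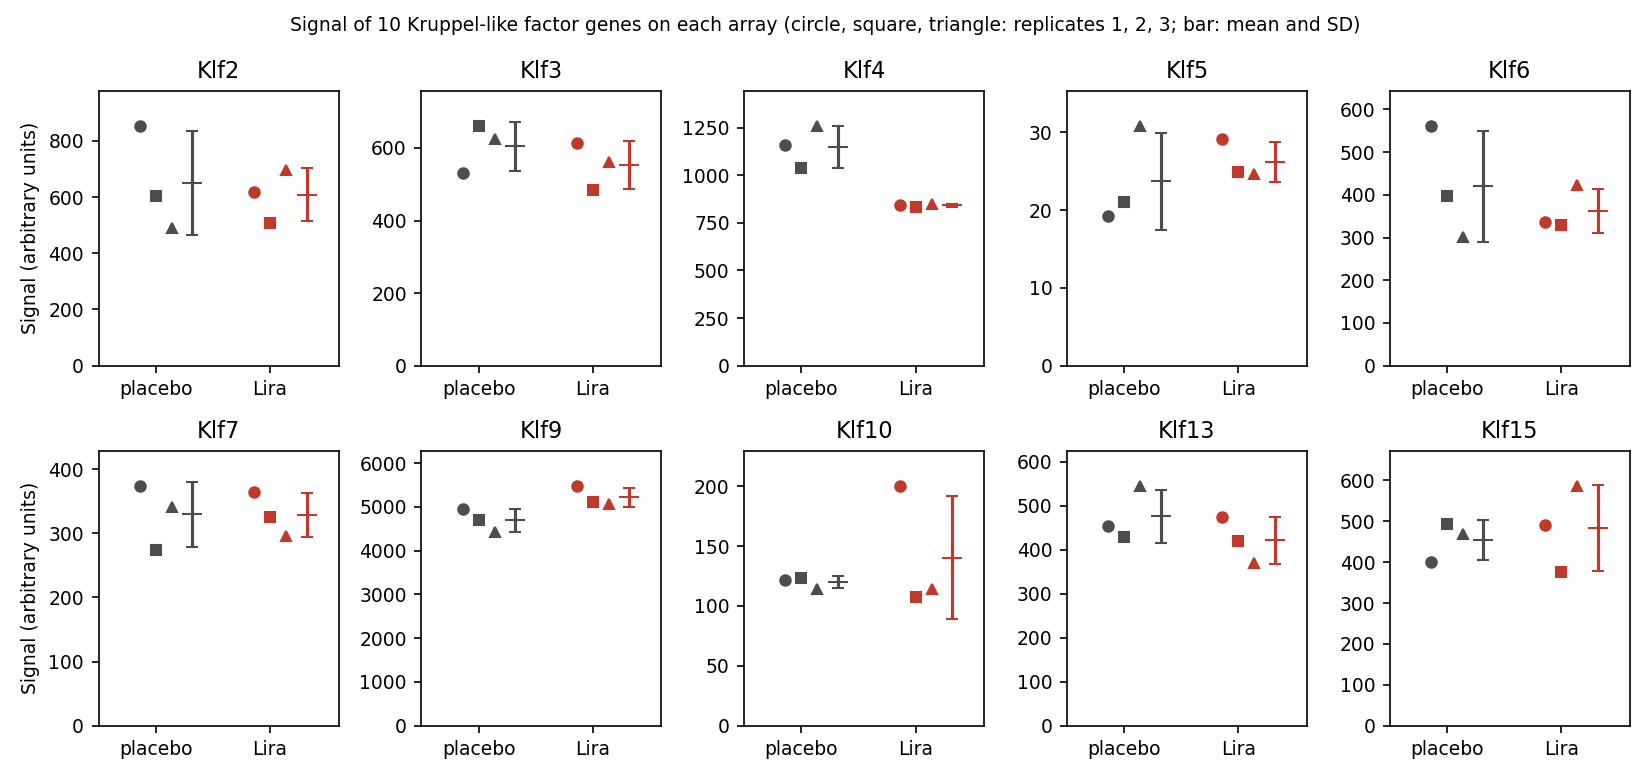
Signal in arbitrary linear units of the brightest probe set of each member on the 3 placebo (grey) and 3 Lira (red) arrays, with the mean and SD to the right of each group; symbols mark replicates 1, 2 and 3. Klf4 is the member whose Lira arrays, at 835 to 850, all lie well under the placebo arrays, at 1036 and above; Klf9 is apart in the other direction by a small margin.

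Klf4, which restrains inflammation and growth in the vessel wall and is also expressed in macrophages, was the member with the clearest difference. Its brightest probe set read 1158, 1036 and 1257 with placebo and 842, 835 and 850 with Lira. Every Lira array lay below every placebo array, and the 3 Lira values were within a few percent of each other, so that the spread came from the placebo side. The means were 1150 ± 111 and 842 ± 7.06 (SD, n = 3 per group). The log2 difference was -0.44 ± 0.10 (SE), a 1.36-fold lower signal, with a 95% interval of -0.65 to -0.23. Klf4 had an unadjusted p of 6.2e-04, rank 27 among 12736 genes, and did not pass after Benjamini-Hochberg adjustment in limma (adjusted p = 0.29). A further Klf4 probe set, which the probe table gives the same source accession, read 518, 439 and 342 with placebo and 298, 397 and 308 with Lira. On it the groups overlapped, with Lira replicate 2 above placebo replicate 3, and the difference was -0.35 ± 0.16 (unadjusted p = 0.046). In bulk tissue, fewer cells that express Klf4 and less Klf4 RNA per cell cannot be told apart.

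Klf2, the flow-induced partner of Klf4 in endothelium, did not differ between groups beyond the spread of the arrays. It read 851, 605 and 491 with placebo and 617, 509 and 697 with Lira, and both extremes came from placebo mice. The difference was -0.07 ± 0.17 (unadjusted p = 0.70), with a 95% interval of -0.44 to 0.30. Without placebo replicate 1, the highest array, it was 0.14, and without Lira replicate 2 it was 0.05, so its direction rests on single arrays. Whether the Klf2 and Klf4 differences themselves differ was not tested. The summed signal of 6 endothelial markers, which Cdh5 and Kdr belong to, ran from 2459 to 3007 with placebo and from 2791 to 3016 with Lira, with overlapping groups.

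Among the factors of injury and TGF-beta response, Klf6 was lower on each of its 5 probe sets without passing the test on any. On the brightest it read 560, 397 and 301 with placebo and 337, 329 and 422 with Lira, so the placebo mice alone spanned more than the Lira mice did. That difference was -0.17 ± 0.18 (unadjusted p = 0.38), and without placebo replicate 1 it was 0.06. The 4 other probe sets gave differences from -0.13 to -0.72. On 1 of them the arrays read 105, 108 and 102 with placebo and 84.1, 70.8 and 82.0 with Lira, with groups apart and a difference of -0.35 ± 0.17 (unadjusted p = 0.054). The probe set with the difference of -0.72 was dim, at 29.7 and 11.3 on average, and its name carries the suffix that marks probes able to bind other transcripts. When all probe sets of a gene were averaged, Klf6 was counted at an unadjusted p under 0.05 together with Klf4. The averaged Klf6 difference was -0.32 (unadjusted p = 0.023; adjusted p = 0.86 in limma). That average gives the dim probe set the same weight as the others.

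Klf10, first known as a TGF-beta-inducible early gene, read 122, 123 and 114 with placebo and 200, 107 and 114 with Lira. Lira replicate 1 was high and the other 5 arrays lay close together. The difference of 0.16 ± 0.20 (unadjusted p = 0.45) became -0.10 without that array. Klf5 was dim, with a mean signal of 24.9 where the lowest gene tested had 23.7. It read 19.2, 21.1 and 30.7 with placebo and 29.2, 24.8 and 24.6 with Lira, and its interval of -0.61 to 0.81 is too wide to tell a change of either sign. Without detection calls, Klf5 at this level could not be told from background.

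The hormone- and rhythm-linked factors were Klf9 and Klf15. Klf9 read 4941, 4689 and 4433 with placebo and 5467, 5109 and 5066 with Lira on its brightest probe set, so each Lira array was higher than each placebo array, the nearest being 5066 and 4941. The means were 4688 ± 254 and 5214 ± 220 (SD, n = 3 per group), and the difference was 0.15 ± 0.08 (unadjusted p = 0.082; adjusted p = 0.84 in limma). The next brightest Klf9 probe sets did not show this difference. One read 3904, 4094 and 4225 with placebo and 4073, 4043 and 3962 with Lira (difference -0.02 ± 0.08), and the other read 3256, 3245 and 3082 and then 3157, 3205 and 3075 (-0.02 ± 0.08). Over 7 Klf9 probe sets 3 were higher and 4 lower, and when they were averaged the difference was -0.01.

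Klf15 has 1 probe set, which read 400, 494 and 468 with placebo and 490, 376 and 585 with Lira. The Lira mice spanned the whole range of the placebo mice, with Lira replicate 2 lowest and Lira replicate 3 highest of all. The difference was 0.07 ± 0.15 (unadjusted p = 0.64), with a 95% interval of -0.25 to 0.39. It was -0.07 without Lira replicate 3, -0.01 without placebo replicate 1 and 0.24 without Lira replicate 2.

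Klf3, a repressor that works through the CtBP corepressors, read 530, 659 and 624 with placebo and 614, 485 and 561 with Lira, with overlapping groups and a difference of -0.12 ± 0.12 (unadjusted p = 0.32). Its 6 tested probe sets were split, 3 lower and 3 higher. With 1 array left out at a time the Klf3 difference ran from -0.21 without placebo replicate 1 to -0.04 without Lira replicate 2, and with averaged probe sets it was -0.0072. Klf13, which takes part in heart development, read 454, 429 and 544 with placebo and 475, 420 and 369 with Lira. Its difference was -0.17 ± 0.13 (unadjusted p = 0.21), with the nearly equal value of -0.16 ± 0.15 on its other tested probe set. With 1 array left out at a time the Klf13 difference ran from -0.26 to -0.07, the latter without placebo replicate 3. Averaging over all 3 of its probe sets, of which the last reads only 8.90 on average, gave 0.02.

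Klf7, best known from neurons and fat tissue, had probe sets that disagreed in sign. Its brightest probe set read 373, 274 and 341 with placebo and 364, 325 and 296 with Lira, a difference of 0.0015 ± 0.14. Another read 209, 232 and 186 with placebo and 201, 108 and 151 with Lira, a difference of -0.44 ± 0.19 (unadjusted p = 0.038), with Lira replicate 1 inside the placebo range. A further one read 140, 175 and 66.2 with placebo and 233, 110 and 186 with Lira, a difference of 0.46 ± 0.30 (unadjusted p = 0.15). The probe table gives all 4 Klf7 probe sets one source accession, and which of them tracks the Klf7 transcript best was not tested. On the brightest probe set the sign also changed without placebo replicate 2 (-0.12), without Lira replicate 1 (-0.07) and after quantile normalisation (-0.0068).

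**Figure D2:**
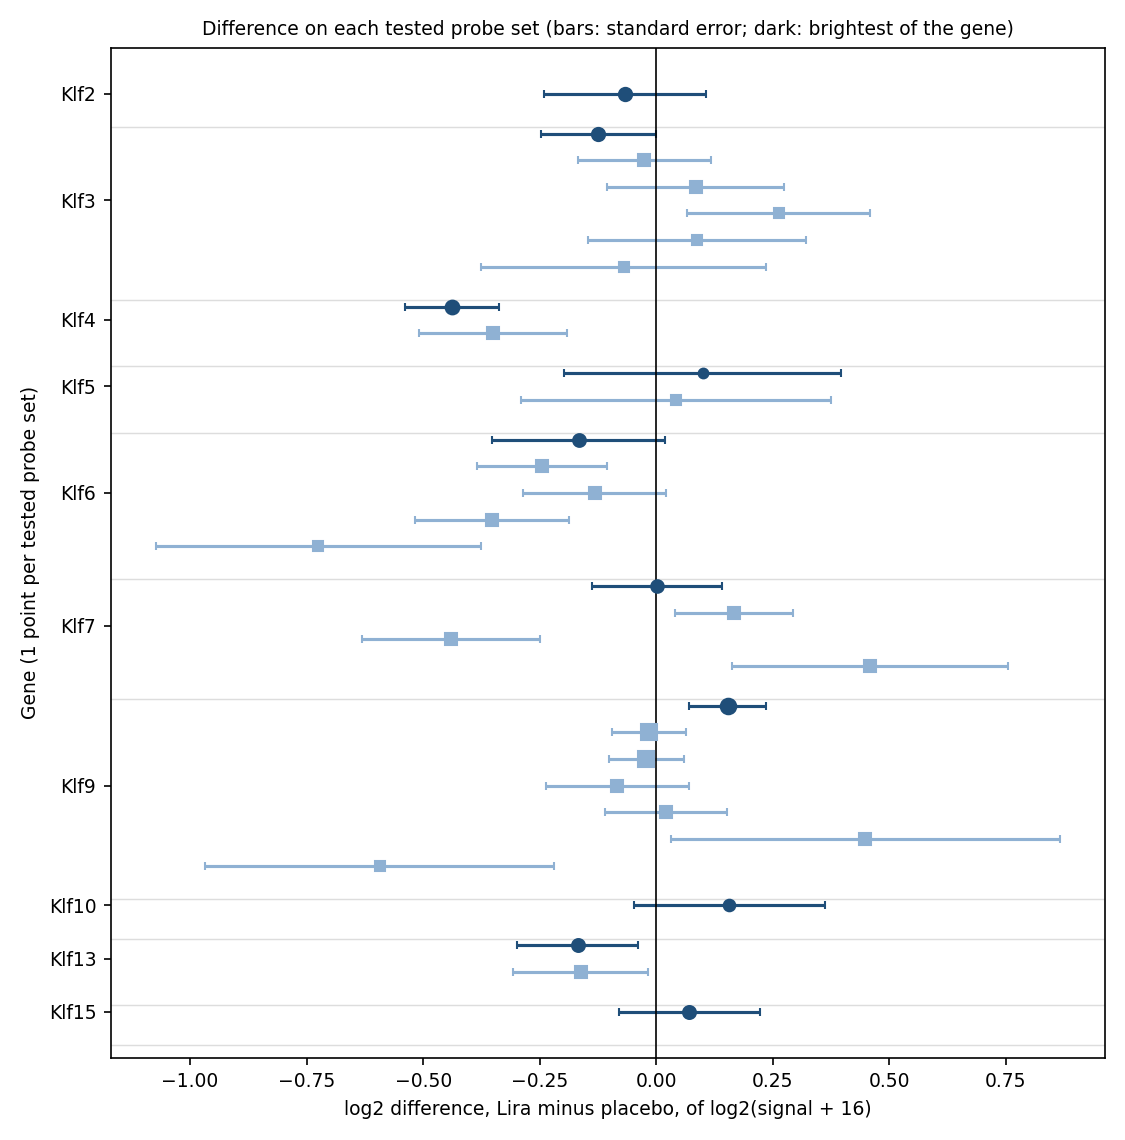
Lira minus placebo difference of log2(signal + 16), with its standard error, for the 31 tested probe sets of the 10 members; dark circles are the brightest probe set of each gene, light squares the others, and point size grows with mean signal. Both Klf4 probe sets and all 5 of Klf6 lie left of 0, while those of Klf3, Klf7 and Klf9 fall on both sides.

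Of the 34 member probe sets, 31 passed the filter when every named probe set was fitted in place of genes, 24462 in all. None of the 31 had an adjusted p under 0.05, against 0.00818% of all probe sets. At an unadjusted p under 0.05 there were 3 of 31, both of Klf4 and 1 of Klf7, all lower, against 5.60% of all probe sets, a count that ran from 1 to 5 in the alternatives tried. The groups did not overlap on 5 of 31, 4 lower and 1 higher, against 11.2%. The difference was below 0 on 18 of 31, against 48.8%. Probe sets of one gene read the same RNA and are not independent of each other. Of 7 members with several tested probe sets, 4 had one sign throughout: Klf4, Klf6 and Klf13 were lower on each, and Klf5, at its dim level, was higher on each.

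With each member read by its brightest probe set, the order of the arrays differed between members. Whether the members vary together from mouse to mouse was not tested. Their widest ranges over the 6 arrays were 0.86 for Klf6, 0.81 for Klf10 and 0.78 for Klf2 on the log2 scale, and the narrowest was 0.30, for Klf9. For Klf2 and Klf6 the same arrays were highest, placebo replicate 1 and then Lira replicate 3. The same were lowest, placebo replicate 3 and then Lira replicate 2. The other Klf6 probe sets did not keep this order. On 1 of them Lira replicate 1 was lowest, at 153, and placebo replicate 3 read 205. On the brightest probe sets, relative to each gene's mean over 6 arrays, placebo replicate 1 stood at 0.45 for Klf2 and 0.53 for Klf6. Placebo replicate 3 stood at -0.32 and -0.33. Klf4 did not follow the order of Klf2 and Klf6 on its brightest probe set, where placebo replicate 3 was highest, at 0.35. On its other probe set placebo replicate 1 was highest, at a signal of 518. There placebo replicate 3 was the lowest placebo array, at 342, and Lira replicate 2 the highest Lira array, at 397. By brightest probe sets, Lira replicate 2 was the lowest array for 4 of 10 members, Klf3, Klf4, Klf10 and Klf15, and the highest for 0. For Klf4 this rests on 835 against 842 and 850 on the other Lira arrays. That array also had the highest median signal over all probe sets, 39.6, where the 6 arrays ran from 28.6 upward; its part in these low values was not tested.

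**Figure D3:**
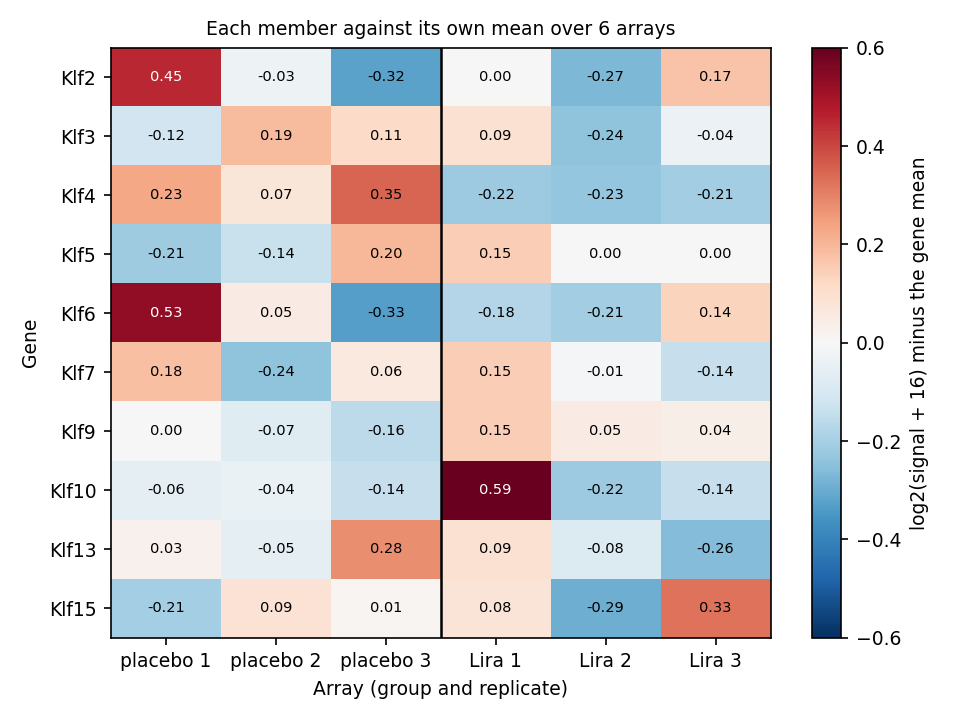
log2(signal + 16) of each member's brightest probe set on each array minus its mean over the 6 arrays, placebo left of the line and Lira right of it. Numbers are the plotted values. On these probe sets Klf2 and Klf6 share their high (placebo 1) and low (placebo 3) arrays. Klf4 is negative on all 3 Lira arrays, and Lira 1 stands out for Klf10 at 0.59.

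Genes whose profile over the 6 arrays lay nearest to that of Klf4 were Sparc, a matrix protein, at a root-mean-square distance of 0.027 on the log2 scale, then Pdxk at 0.046 and Slc35e2 at 0.056, where Klf4 itself departs from its mean by 0.23. Sparc read 1982, 1760 and 2189 with placebo and 1435, 1403 and 1512 with Lira, a difference of -0.44, equal to that of Klf4 to 2 decimals. Nearest to Klf9 were Hnrnpl (0.029), Psmd1 (0.029) and Stub1 (0.033), where Klf9 departs from its mean by 0.096. With 6 arrays and 12736 genes such close profiles are a description.

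Beyond the members, 64 genes of 5 related lists were tested, of which 23 were lower and 41 higher, against 48.1% lower among all genes. None of the 64 passed an adjusted p of 0.05. At an unadjusted p under 0.05 there were 5, 3 lower and 2 higher, a share of 7.81% beside 6.02% of all genes. Groups were apart in 9 of the 64, against 11.4% of all genes. Because the lists were drawn up with earlier results of these data known, these shares only describe them. In the rest of the Kruppel-like and Sp family 0 of 10 tested genes were counted, 7 higher and 3 lower. The GC box factor Sp1 read 400, 335 and 418 with placebo and 447, 446 and 463 with Lira, with groups apart and a difference of 0.23 ± 0.11 (unadjusted p = 0.065). Sp4 measured 27.7 ± 9.13 and 47.6 ± 2.83 at a dim level, and Sp3 217 ± 31.2 and 265 ± 61.3 (SD, n = 3 per group).

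Regulators and cofactors of Kruppel-like factors gave 1 count among 18 tested genes, with 10 higher, 8 lower and a median of 0.02. That gene was Clock, the core clock activator that binds E-boxes, which read 215, 255 and 242 with placebo and 295, 357 and 292 with Lira. Its groups were apart and its difference was 0.38 ± 0.13 (unadjusted p = 0.010; adjusted p = 0.64 in limma). Its partner Arntl measured 62.4 ± 6.08 and 88.3 ± 21.0 (SD, n = 3 per group), with a difference of 0.39 ± 0.20 and groups apart only narrowly, at 66.6 and 67.2. Fbxw7, a ubiquitin ligase subunit that targets Klf proteins, measured 485 ± 88.2 and 599 ± 78.8. The Mef2 genes, which act upstream of Klf2, differed by 0.05 (Mef2a), -0.00059 (Mef2c) and 0.03 (Mef2d), and the glucocorticoid receptor Nr3c1 by -0.0025.

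Metabolic and electrical genes that Klf15 is known to act on were 12 higher and 3 lower among 15 tested, and 1 was counted. Their median was 0.05, beside 0.01 over all genes, of which 48.1% were lower. Bckdhb, a subunit of the dehydrogenase that breaks down branched-chain amino acids, read 1170, 1205 and 1019 with placebo and 1280, 1460 and 1342 with Lira, a difference of 0.26 ± 0.10 (unadjusted p = 0.019; adjusted p = 0.73 in limma). Its partner subunit Bckdha measured 2016 ± 115 and 2242 ± 141, and the carnitine carrier Slc25a20 3019 ± 275 and 2737 ± 190. Kcnip2, the potassium channel subunit through which Klf15 sets the cardiac rhythm of repolarisation, differed by 0.18 ± 0.14 (unadjusted p = 0.24). Klf15 itself did not differ beyond its spread, as given above, and its part in the values of this list was not tested.

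Endothelial genes that Klf2 and Klf4 are known to control gave 0 counts among 10 tested, with 6 higher, 4 lower and a median of 0.03. The nitric oxide synthase Nos3, which both factors induce, measured 319 ± 46.6 and 308 ± 37.9 (SD, n = 3 per group), and the anticoagulant receptor Thbd 604 ± 15.4 and 648 ± 66.7. The vasoconstrictor Edn1, which Klf2 represses, measured 80.4 ± 18.3 and 123 ± 45.3, with overlapping groups and a difference of 0.48 ± 0.24 (unadjusted p = 0.061). S1pr1 differed by -0.17 ± 0.14 and Ace by -0.18 ± 0.16, the latter with groups apart.

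Known targets of Klf5, Klf6, Klf10 and Klf13 gave 3 counts among 14 tested, all lower, with 6 higher and 8 lower in all and a median of -0.04. The cyclin Ccnd1 read 826, 833 and 815 with placebo and 358, 508 and 583 with Lira, a difference of -0.78 ± 0.15 (unadjusted p = 1.2e-04; adjusted p = 0.14 in limma). The natriuretic peptide gene Nppa differed by -0.67 ± 0.13 (adjusted p = 0.16) and the growth factor Vegfa, at 1184 ± 23.8 and 896 ± 130, by -0.41 ± 0.11 (adjusted p = 0.54). On this list 3 of 14 genes had groups that do not overlap, these same 3, against 11.4% of all genes. The list was drawn up with earlier results of these data known, so neither count tests whether targets differ more often than other genes. Ccnd1, Nppa and Vegfa each have many regulators outside this family. None of the factors named for this list passed the adjusted threshold, and their part in these 3 differences was not tested.

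**Figure D4:**
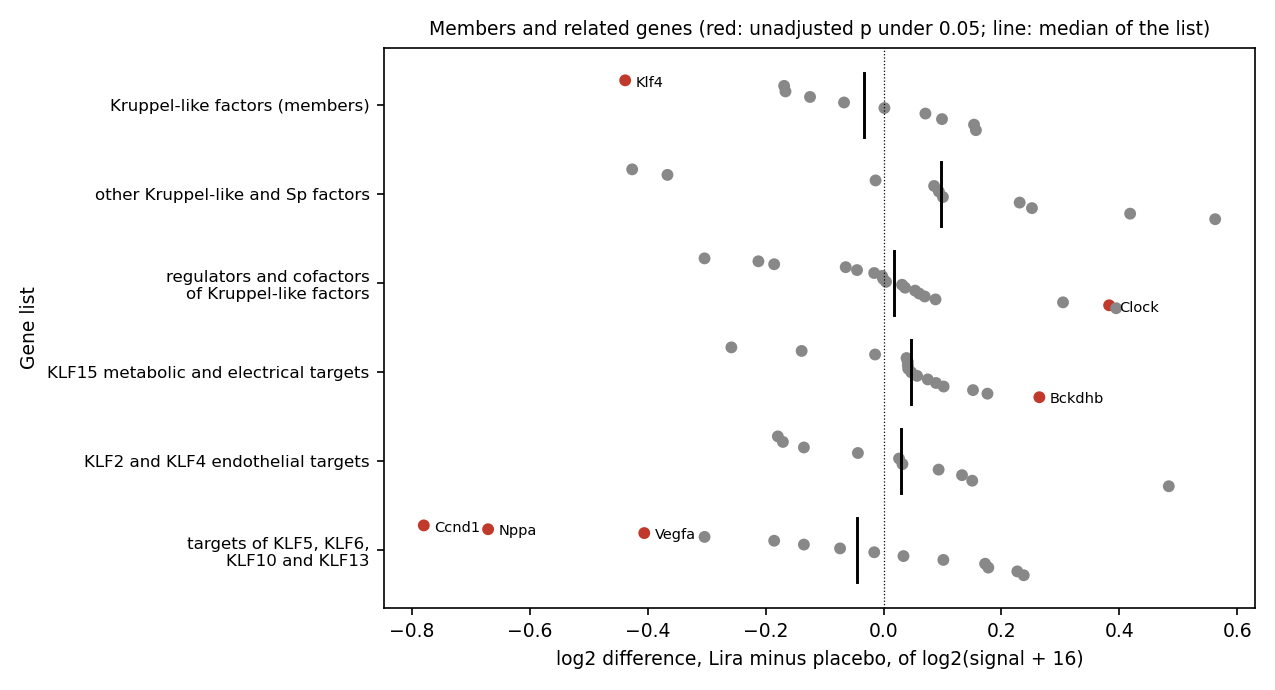
Lira minus placebo difference of log2(signal + 16) for the 10 members and for the tested genes of 5 related lists, 1 point per gene, with red for an unadjusted p under 0.05 and a line at each list's median. The 6 red genes are Klf4, Clock, Bckdhb, Ccnd1, Nppa and Vegfa, and the medians lie between -0.04 and 0.10.

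The labelled tissue was checked against markers. Heart muscle markers were among the brightest signals, with Tnnt2 at 35266 and Myh6 at 32447 on average with placebo, and the 6 muscle markers summed to 129032 to 136436 with placebo and 131508 to 160298 with Lira. The labels' extraction protocol mentions blood. The red cell marker Alas2 was dim, at 34.3 with placebo and 13.9 with Lira on average, and read 63.9, 2.08 and 36.7 within placebo. Its list summed to 14.7 to 68.5 with placebo and 15.2 to 32.5 with Lira, over the 2 of its 6 genes read here. The beta globin genes of the list were not among them, so these values cannot settle how much blood the samples held. Lymphocyte markers summed to at most 103 over 4 markers, neutrophil markers to at most 152 over 5 and fat cell markers to at most 96.4 over 4. Of the cell types that can express Klf4, macrophage markers summed to 3273 to 3834 with placebo and 3587 to 4395 with Lira, with overlapping groups. All 6 of these markers were higher, 0 of them at an unadjusted p under 0.05 in limma. Groups were apart in 2 of the 6, against 11.4% of all genes. Smooth muscle and pericyte markers (Rgs5 and Acta2 the brightest) summed to 9255 to 10388 and 10665 to 12084, with groups apart in the direction opposite to Klf4. That separation came from Acta2, which read 1122, 1074 and 1391 with placebo and 3377, 1579 and 1518 with Lira. In a sum without Acta2, chosen after its values were seen, the groups overlapped, at 8181 to 9266 with placebo and 8707 to 9240 with Lira. Of the 5 tested markers of this list 3 were higher and 2 lower. Fibroblast markers (Dcn and Lum the brightest) summed to 9989 to 10933 and 10860 to 12970, with overlapping groups. Dcn, at 6790 with placebo and 7976 with Lira on average and with groups apart, made up most of this sum. Of the 6 fibroblast markers 4 were higher and 2 lower. The lower ones were Postn, at 424 and 325 on average with groups apart, and Col1a2, at 1160 and 1060. The part of these cell types in the Klf4 difference was not tested.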

How the data were processed

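Left ventricle RNA of 3 placebo and 3 Lira mice was hybridised to 1 array each. The authors deposited 1 intensity per probe set and array, not logged. The submitters' processing notes name Affymetrix Expression Console. Its version, the summarisation algorithm and the genome build were not given in the sources used here. Each array has a 2% trimmed mean intensity of 150, so only changes relative to other genes can be seen, and arrays carry no read depth: their number limits the precision.

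Of 45101 probe sets, 64 control probe sets, 932 with several genes and 9160 without a name here were left out, and 34945 were named by the platform's probe table (34741 matched a RefSeq gene ID of GRCm38.p6). Each of 18194 genes was represented by its brightest probe set, the 30% with the lowest mean signal were left out, and log2(signal + 16) was fitted for the remaining 12736 genes with limma 3.58.1 in R 4.3.3 (lmFit and trended eBayes, two-sided tests, Benjamini-Hochberg over all genes, threshold 0.05). The same fit was run on 24462 probe sets. The fit was tested on simulated data. Members, related lists and marker lists were chosen with earlier results of these data known, so counts over them are descriptions. Named were all members, up to 3 genes of smallest p per related list, the brightest markers, and the 3 genes nearest in profile to the 2 members of smallest p. Nos3, Thbd, Kcnip2, the Mef2 genes, Nr3c1, Cdh5, Kdr, Postn, Col1a2 and Alas2 were added after their values were seen. Replicate numbers are in the sample titles. Deviations from the group means of same-numbered arrays correlated at -0.029, 0.040 and -0.097 over probe sets, where differently numbered arrays ran from -0.123 to 0.153. With so few arrays this cannot settle whether the numbers pair the mice, and the main fit took no pairing. Genes of a list that were dim or unnamed on the array were not tested.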

Additional observations from a re-analysis of the deposited data

How the results depend on the processing

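17 alternatives were tried: quantile normalisation, median centring, pseudocounts of 1 and 64, no filter and a filter at 50%, averaging all probe sets of a gene, an untrended prior, a robust one, weights per array, the replicate number as a block, and each array left out in turn. 0 members passed the adjusted threshold in each of them, with 1 member at an unadjusted p under 0.05 in limma in 15 of them and 2 (Klf4 and Klf6) with averaged probe sets and without placebo replicate 3. Klf4 was lower in all 17, by 0.37 to 0.51 on the log2 scale, with an unadjusted p of 4.4e-04 to 0.010 and an adjusted p of 0.23 to 0.91. Klf5 was not tested with the filter at 50% or with averaged probe sets.

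With the replicate block the Klf4 adjusted p was 0.30 and the related lists gave 7 genes, and no member's call changed. With averaged probe sets the sign turned for Klf9 (-0.013) and Klf13 (0.017), and with quantile normalisation for Klf7 (-0.0068); the cause was not tested. Member probe sets at an unadjusted p under 0.05 numbered 5 with quantile normalisation, 5 with array weights and 1 with median centring. Leaving out 1 array at a time gave 1 to 2 members, 1 to 5 probe sets (5 without placebo replicate 3, 1 without Lira replicate 3), 6 to 8 related genes (8 without Lira replicate 1) and a member median of -0.091 to 0.037, above 0 without placebo replicate 1 (0.037) or Lira replicate 2 (0.029). The differences then ran from -0.25 to 0.14 for Klf2, -0.21 to -0.035 for Klf3, -0.37 to 0.057 for Klf6, -0.12 to 0.092 for Klf7, -0.10 to 0.30 for Klf10, -0.26 to -0.072 for Klf13 and -0.074 to 0.24 for Klf15. In all, 157 of 168 single-gene values kept their sign and their side of the threshold and 11 changed sign. The filters, the untrended and robust priors and the replicate block leave a difference as it was, so its sign could not change there. The same holds for averaging in members with 1 probe set. The count is therefore a description and no measure of how stable the values are. 3 mice per group limit every value, and dim signals, as for Klf5, could not be told from background.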
